A study of Mus musculus with 48 samples.

Results

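A set of 8 genes known from the fetal, regenerating or injured liver was followed through 6 genotype groups of mice: Afp, H19, Gpc3, Igf2bp3, Cd24a, Golm1, Ly6d and Tff3. They were fixed by name, 8 of the 55416 genes in the count tables, and each was found by its single Ensembl identifier. The 8 and the lists read beside them were chosen with earlier results of these data known. Counts of them set beside shares of all genes are therefore a description and no independent test. The livers came from mice with a change in LXRα, the oxysterol receptor encoded by Nr1h3, and were sequenced as stranded poly(A) RNA. The DN groups came from a CRISPR–Cas9 knock-in of W441R, a dominant negative mutation in the activation helix of the receptor, as wild-type (DN:WT), heterozygous (DN:HET) and homozygous (DN:HOM) mice, described as males from heterozygous crosses. The KO groups came from a separate LXRα knockout line, kept at another site and backcrossed to C57BL/6, as KO:WT, KO:HET and KO:HOM mice, whose sex is not named in the sources used here beyond calling the experiment a repeat of the knock-in study. Both alleles are germline, so every cell type of the liver carried them, and all mice, wild-type included, were labelled C57Bl/6J and ate a western diet for 8 weeks from about 8 weeks of age. There were 8 livers per group, and no group on another diet was analysed here.

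During development the liver makes large amounts of alpha-fetoprotein and of imprinted growth regulators, and hepatocytes silence these genes after birth. Some of them are switched on again in regenerating liver and in liver cancer, which is why they are called oncofetal. Another set of genes, for surface glycoproteins and secreted peptides, is low in the resting adult liver and is used as a sign of progenitor cells, reactive bile duct cells or chronic injury. Afp, H19, Igf2bp3 and Gpc3 belong to the first kind, and Cd24a, Golm1, Ly6d and Tff3 to the second.

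Before any result, 2 libraries stood apart in genes that are not among the 8. The library labelled DN:WT animal 10 held 71.3 CPM of Nr1h3 (reads of the gene relative to all reads on genes, scaled between libraries), inside the DN:HOM range of 68.5 to 77.4, whereas the other DN:WT livers lay between 82.1 and 96.9. The library labelled DN:HOM animal 12 held 86.9 CPM, inside that DN:WT range. This split of Nr1h3 rests on the scaling: with library size alone the DN:HOM difference was 0.11 on the log2 scale (adjusted p = 0.130 by edgeR), and in unscaled reads the library labelled DN:WT animal 10, with 1409, lay between the other DN:WT livers (1217 to 1408) and the DN:HOM livers (1445 to 1612). A sum of 8 bile duct cell markers was 107 CPM in the library labelled DN:WT animal 10, against 8.43 to 14.1 CPM in the other DN:WT livers, and 12.2 CPM in the library labelled DN:HOM animal 12, against 89.8 to 111 CPM in the other DN:HOM livers. In that sum each library lay inside the range of the opposite genotype, and neither appears in one of the authors' own tables drawn from these livers, for which no reason is given in the sources used here. The main values below come from the other 46 livers, 7 in DN:WT and DN:HOM and 8 in each other group, and the main DN results are also given with all 48. In the knockout study Nr1h3 fell from 93.6 ± 8.82 CPM (SD, n = 8) in KO:WT to 59.2 ± 5.63 CPM in KO:HET (n = 8) and 27 ± 1.99 CPM in KO:HOM livers (n = 8). Reads on genes ran from 5332897 to 16961379 per liver, with KO:HET animal 3 and KO:HOM animal 17 the shallowest. The rarer of the 8 genes therefore rest on single reads in some livers.

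The start regions of 4 genes are shown, since they include the 3 with the highest fold in DN:HOM livers and the classic fetal gene Afp. Each is the 250 bases before the start of the canonical transcript in the GENCODE annotation (GRCm39), written 5′ to 3′ on the gene's strand. Capitals mark the exact letters of a searched motif on either strand: the TATA box TATAAA, the GC box GGGCGG, the nuclear receptor half-site AGGTCA and its direct repeat with a spacing of 4, the AP-1 letters TGACTCA, the FOXA letters TGTTTAC, the TEAD letters GGAATG, the NF-kB letters GGGA, any 2 bases and TTCC and the STAT letters TTCNNNGAA.
Afp, chr5:90638334-90638583, + strand: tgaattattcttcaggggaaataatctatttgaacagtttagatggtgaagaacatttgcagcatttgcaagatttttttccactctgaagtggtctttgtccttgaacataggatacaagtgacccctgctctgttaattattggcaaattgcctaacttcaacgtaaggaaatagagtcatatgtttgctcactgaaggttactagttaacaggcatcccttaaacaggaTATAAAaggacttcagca
H19, chr7:142133958-142134207, - strand: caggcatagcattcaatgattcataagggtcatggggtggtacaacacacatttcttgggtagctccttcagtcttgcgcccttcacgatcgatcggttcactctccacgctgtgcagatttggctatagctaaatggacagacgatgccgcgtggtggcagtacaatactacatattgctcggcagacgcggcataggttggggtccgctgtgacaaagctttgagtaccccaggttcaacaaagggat
Cd24a, chr10:43454913-43455162, + strand: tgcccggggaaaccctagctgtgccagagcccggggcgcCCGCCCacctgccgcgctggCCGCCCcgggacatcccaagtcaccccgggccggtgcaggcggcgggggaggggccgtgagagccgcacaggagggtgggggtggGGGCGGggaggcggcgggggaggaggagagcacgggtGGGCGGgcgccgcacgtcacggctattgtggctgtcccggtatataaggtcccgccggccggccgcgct
Ly6d, chr15:74635598-74635847, - strand: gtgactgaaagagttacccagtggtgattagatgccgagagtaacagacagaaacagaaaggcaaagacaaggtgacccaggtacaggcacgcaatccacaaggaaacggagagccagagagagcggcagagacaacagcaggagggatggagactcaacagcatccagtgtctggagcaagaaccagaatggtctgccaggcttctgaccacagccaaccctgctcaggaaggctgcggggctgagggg

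Afp had a TATA box 18 to 13 bases before the start. Of 21770 mouse promoters of the same length, 11.9% held TATAAA. Cd24a had 4 GC boxes, a motif present in 36.3% of promoters, and 77.2% of its bases were G or C, against 36.8% for Afp, 50.8% for H19 and 55.2% for Ly6d. None of the searched letters occurred in the windows of H19 and Ly6d. H19 also hosts a microRNA in its first exon. Its mature arms in RefSeq (GRCm38.p6) are shown with the seed, bases 2 to 8, in capitals, because this is the short RNA that the H19 transcript carries.
mmu-miR-675-5p: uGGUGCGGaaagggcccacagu
mmu-miR-675-3p: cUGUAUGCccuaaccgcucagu
The arms have different seeds. No read was assigned to Mir675 in any of the 46 livers: the counting leaves out reads that fall on 2 genes of 1 strand, and a poly(A) library does not capture mature microRNAs.

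Across the 46 livers, 6 of the 8 genes were higher in every DN:HOM liver than in any DN:WT liver: H19, Igf2bp3, Cd24a, Golm1, Ly6d and Tff3. Among the 15711 genes tested, 17.8% separated the groups in this direction. Over all 48 livers the groups overlapped for each of the 8 genes, and the share over all tested genes was not counted there. Igf2bp3 had too few reads to pass the filter on low counts, and 6 of the 7 genes that passed it were significantly higher in DN:HOM livers, where 29.1% of all tested genes were higher and 59.1% changed in either direction (edgeR's quasi-likelihood test, adjusted p under 0.05). In KO:HOM livers 2 of the 7, H19 and Golm1, were higher, against 11.5% of all tested genes higher and 19.4% changed, and none of the 8 separated KO:HOM from KO:WT, which 2.18% of tested genes did upwards. With all 48 livers 5 of the 7 were called in DN:HOM livers (23% of all genes higher, 48% changed) and none in KO:HOM livers (8.79% higher, 12.9% changed), where H19 and Golm1 had an unadjusted p under 0.05 in edgeR; DESeq2, run on the 46 livers, called 7 in DN:HOM and 2 in KO:HOM livers. No gene of the 7 was called in heterozygous livers of either line. The plot of CPM per liver shows these levels on a log axis.

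**Figure D1:**
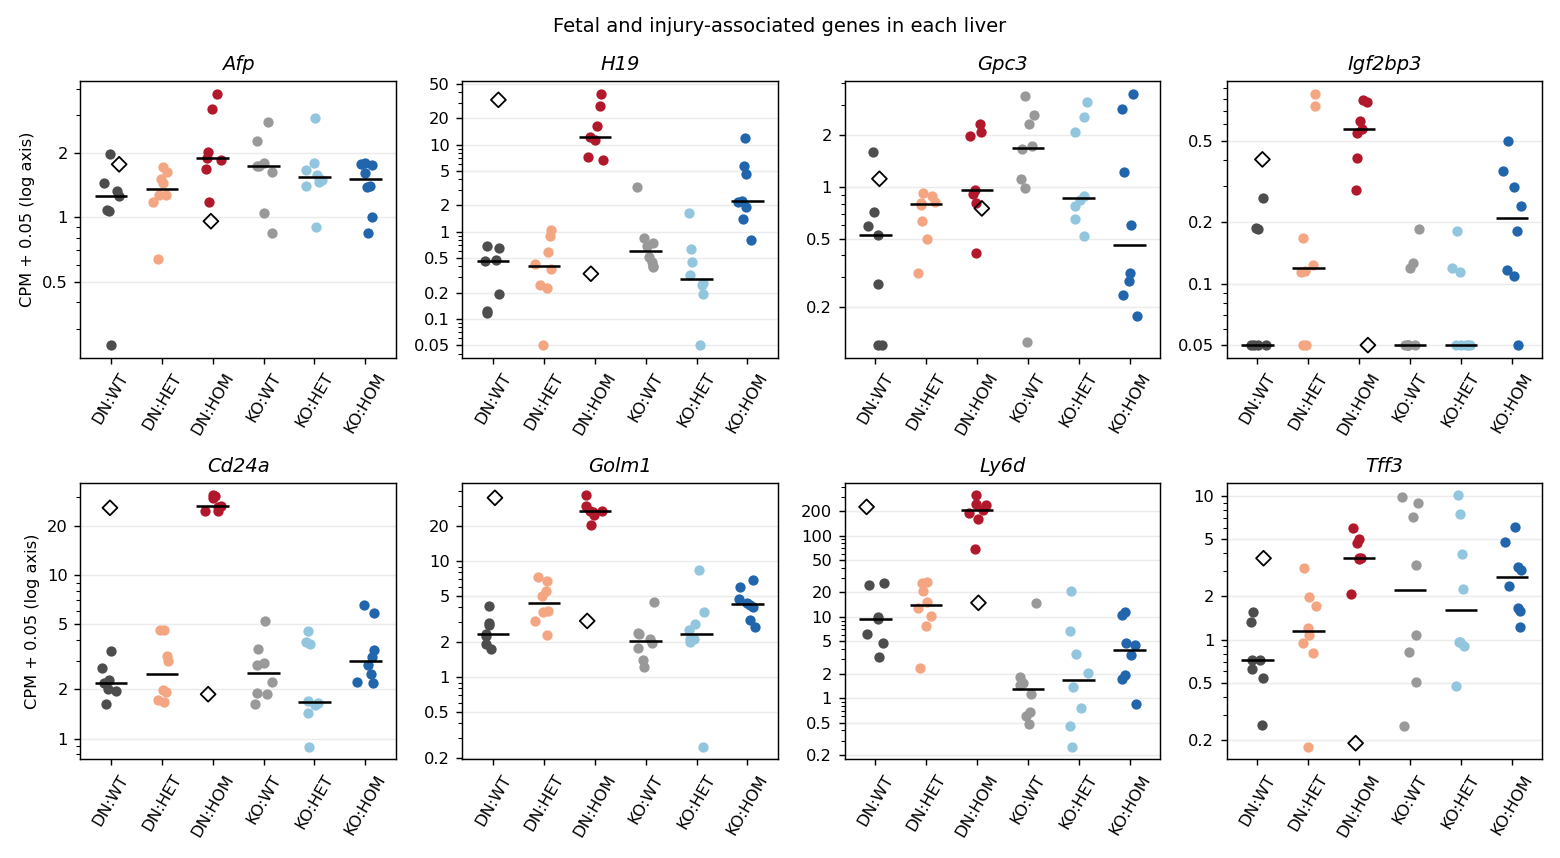
Each panel shows 1 gene in every liver, as CPM plus 0.05 on a log axis, by genotype group; bars are group medians over the 46 livers. Open diamonds are the libraries labelled DN:WT animal 10 and DN:HOM animal 12, which were left out of the medians. H19, Cd24a, Golm1 and Ly6d of the other DN:HOM livers lie above every other DN:WT liver, and both diamonds fall with the opposite genotype.

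Among the fetal genes, H19 differed most. H19 is an imprinted long noncoding RNA expressed from the maternal allele (chr7:142129262-142133957, - strand, GRCm39), abundant in fetal liver and nearly silent after birth. The 7 DN:WT livers held 1 to 9 reads each, 34 in all, and their levels ran from 0.0674 CPM through a median of 0.409 to 0.643 CPM. DN:HET livers were similar, with 0 to 1.001 CPM and a median of 0.350 CPM, and DN:HET animal 14 had no read. The 7 DN:HOM livers ran from 6.55 CPM through a median of 12.03 to 38.3 CPM in animal 9. The lowest DN:HOM liver was thus about an order of magnitude above the highest DN:WT liver. The log2 fold change was 5.63 (95% confidence interval 4.36 to 6.90, adjusted p = 3.15e-10 by edgeR), a 49.6-fold difference that rests on the few DN:WT reads. With all 48 livers the value was 1.74 (adjusted p = 0.0570) and missed the threshold. There the library labelled DN:WT animal 10 held 642 reads or 32.5 CPM, and the library labelled DN:HOM animal 12 held 4 reads or 0.280 CPM.

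KO:WT livers ran from 0.344 CPM through a median of 0.544 to 3.19 CPM, and KO:HOM livers from 0.760 CPM through a median of 2.17 to 11.8 CPM of H19. KO:WT animal 23 at 3.19 CPM lay inside the KO:HOM range. The other KO:WT livers stayed at or below 0.807 CPM, just above the lowest KO:HOM liver, the shallow animal 17 with 4 reads. KO:HOM animals 8 and 11 were the highest, with 11.8 and 5.59 CPM. H19 rose by 2.14 on the log2 scale in KO:HOM livers (95% confidence interval 1.09 to 3.19, adjusted p = 0.00239 by edgeR over 46 livers). This call was lost when the spread was estimated with all 48 livers (2.14, adjusted p = 0.0954). KO:HET livers lay between 0 and 1.59 CPM and did not differ from KO:WT (log2 fold change -0.99, adjusted p = 0.832 by edgeR).

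Afp moved far less. Afp encodes alpha-fetoprotein, the fetal counterpart of albumin in plasma (chr5:90638584-90656766, + strand). DN:WT livers ran from 0.202 CPM through a median of 1.20 to 1.94 CPM, and DN:HOM livers from 1.13 CPM through a median of 1.85 to 3.74 CPM. Only 3 of the 7 DN:HOM livers exceeded the highest DN:WT liver. This was a log2 fold change of 0.93 (95% confidence interval 0.35 to 1.504, adjusted p = 0.00499 by edgeR), or 1.90-fold, and 0.72 with all 48 livers (adjusted p = 0.0311). The level behind this is low: 116 Afp reads over the 7 DN:WT livers and 321 over the 7 DN:HOM livers. Reads on the opposite strand of Afp outnumbered them in DN:WT livers, with 353 reads against 210 in DN:HOM livers. An antisense transcript there, Gm43449, fell from 1.15 ± 0.289 CPM in DN:WT to 0.285 ± 0.0836 CPM in DN:HOM livers (SD, n = 7 each, with no test). When both strands are counted together the sign of the Afp difference therefore reverses (log2 fold change -0.36, adjusted p = 0.137 by edgeR), so the rise of Afp holds for its own strand only.

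In the knockout study Afp lay between 0.790 and 2.76 CPM in KO:WT (median 1.69), between 0.850 and 2.85 CPM in KO:HET (median 1.49) and between 0.796 and 1.75 CPM in KO:HOM livers (median 1.46). No KO:HOM liver exceeded the highest KO:WT liver. The log2 fold change was -0.27 (95% confidence interval -0.82 to 0.28, adjusted p = 0.532 by edgeR). DN:HET livers, at 0.586 to 1.68 CPM with a median of 1.31 CPM, did not differ from DN:WT either (0.15, adjusted p = 0.890 by edgeR).

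Igf2bp3 encodes an RNA-binding protein of the embryo that binds the IGF2 mRNA and is shut off in adult tissues (chr6:49062144-49192447, - strand). It had the fewest reads of the 8 genes. Of the DN:WT livers, 4 of 7 had no read and none had more than 3, whereas every one of the 7 DN:HOM livers had between 5 and 16 reads. The DN:HOM levels ran from 0.236 CPM through a median of 0.521 to 0.738 CPM, all above the DN:WT maximum of 0.212 CPM. An exact two-sided permutation test of the mean CPM gave p = 0.00058 for 7 against 7 livers, the smallest value this design allows, and p = 0.00435 for 8 against 8 livers. These p-values were not adjusted. Over the 8 genes and 5 comparisons, 40 such tests were run on the main set of livers. The same tests were repeated with every liver, which gave the value for 8 against 8 livers, and again on log2 levels. The number of tests run is therefore larger than 40. In a fit of all genes without the filter on low counts, Igf2bp3 was higher by 2.79 on the log2 scale (adjusted p = 0.00203 by edgeR). DN:HET animals 4 and 29, with 0.688 and 0.798 CPM, reached the DN:HOM range, while the other 6 DN:HET livers had at most 0.117 CPM.

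KO:HOM livers had 21 Igf2bp3 reads in all, at most 7 in a liver, against 4 reads over the 8 KO:WT livers. The exact permutation p was 0.0202 (8 against 8 livers), and the fit without the filter did not call it (log2 fold change 2.12, adjusted p = 0.120 by edgeR). Malsu1, which overlaps Igf2bp3 on the opposite strand, held 14.1 to 17.2 CPM on average in every group, so counting both strands together mixes in other reads, and that setting gave no call in DN:HOM livers (log2 fold change 0.96, adjusted p = 0.0729).

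Gpc3, the glypican that is a marker of hepatocellular carcinoma and sits on the X chromosome (chrX:51361303-51703137, - strand), was the one tested gene of the 7 that missed the threshold in DN:HOM livers. DN:WT livers ran from 0.0707 CPM through a median of 0.477 to 1.53 CPM, and DN:HOM livers from 0.361 CPM through a median of 0.912 to 2.27 CPM. Only DN:HOM animals 15, 18 and 33, between 1.92 and 2.27 CPM, lay above all 7 DN:WT livers. The log2 fold change was 1.33 (95% confidence interval 0.13 to 2.54, adjusted p = 0.0526 by edgeR), and 1.05 with all 48 livers (adjusted p = 0.116). Scaling by library size alone, under which the median of all genes in this comparison was 0.42 in place of -0.01, put Gpc3 past the threshold (1.76, adjusted p = 0.00831). Leaving out 1 liver moved Gpc3 past the threshold in 10 of 30 fits, most of all without DN:WT animal 7, the highest DN:WT liver (1.88, adjusted p = 0.0119).

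The highest Gpc3 levels in single livers were in the knockout study, in each of its genotypes, though the group medians did not follow this order. KO:WT livers ran from 0.0767 CPM through a median of 1.64 to 3.32 CPM, KO:HET livers from 0.472 CPM through 0.814 to 3.06 CPM and KO:HOM livers from 0.127 CPM through 0.408 to 3.42 CPM. The highest KO:HOM liver was the shallow animal 17, with 18 reads. The 3 groups overlapped over nearly their whole range. The KO:HOM difference was -0.82 on the log2 scale (95% confidence interval -1.90 to 0.27, adjusted p = 0.311 by edgeR). Between the wild-type groups Gpc3 was 1.71 higher in KO:WT than in DN:WT on the log2 scale (adjusted p = 0.0487), a call lost in 20 of 30 fits that left out 1 liver. Line, site, sequencing and any difference in sex cannot be told apart in that comparison.

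The injury-associated genes, all 4, were higher in every DN:HOM than in any DN:WT liver over the 46 livers, beside 17.8% of all tested genes. With all 48 livers the groups overlapped for each of the 4. Cd24a encodes the small, heavily glycosylated surface protein CD24, found on bile duct and progenitor cells, on regenerating epithelium and on several blood cells (chr10:43454280-43460264, + strand). DN:WT livers ran from 1.57 CPM through a median of 2.14 to 3.40 CPM. DN:HOM livers ran from 24.6 CPM through a median of 26.3 to 30.7 CPM, the narrowest relative spread of the 8 genes in that group (coefficient of variation 9.52%, against 18.5% for Golm1 and 69.3% for H19). The groups were far apart, with 23 to 51 reads in DN:WT livers and 522 to 670 in DN:HOM livers. Cd24a rose by 3.61 on the log2 scale (95% confidence interval 3.0 to 4.22, adjusted p = 1.29e-13 by edgeR), or 12.2-fold. It remained past the threshold with all 48 livers (2.19, adjusted p = 0.000224), although the library labelled DN:WT animal 10 held 25.8 CPM and the library labelled DN:HOM animal 12 held 1.82 CPM.

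DN:HET livers ran from 1.62 CPM through a median of 2.44 to 4.57 CPM of Cd24a, and animals 4 and 22 shared the highest level. The difference from DN:WT was 0.31 on the log2 scale (adjusted p = 0.739 by edgeR). KO:HOM livers ran from 2.14 CPM through a median of 2.94 to 6.49 CPM, KO:WT livers from 1.58 CPM through 2.47 to 5.21 CPM, and KO:HET livers from 0.840 CPM through 1.63 to 4.50 CPM. KO:HOM animals 8 and 11 alone exceeded the highest KO:WT liver. The KO:HOM difference was 0.38 on the log2 scale (95% confidence interval -0.19 to 0.94, adjusted p = 0.376 by edgeR).

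Golm1 encodes the Golgi membrane protein GP73, which is shed into serum and has been followed as a serum marker of chronic liver disease (chr13:59782440-59828564, - strand). DN:WT livers ran from 1.70 CPM through a median of 2.32 to 4.07 CPM, and DN:HOM livers from 20.3 CPM through a median of 27.2 to 36.9 CPM. The groups did not overlap. Golm1 rose by 3.44 on the log2 scale (95% confidence interval 2.82 to 4.07, adjusted p = 9.36e-13 by edgeR), or 10.9-fold, and 1.86 with all 48 livers (adjusted p = 0.00135). DN:HET livers ran from 2.26 CPM through a median of 4.30 to 7.26 CPM, again with animals 22 and 4 highest, and 4 of the 8 lay above every DN:WT liver. Their difference from DN:WT, 0.85 on the log2 scale (95% confidence interval 0.25 to 1.46), gave an unadjusted p of 0.00655 and did not pass the adjustment over all genes (adjusted p = 0.129 by edgeR). It changed sign to -0.54 in the fit of all 48 livers.

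KO:HOM livers held 2.66 to 6.84 CPM of Golm1, with a median of 4.26 CPM, against 1.18 to 4.36 CPM and a median of 1.998 CPM in KO:WT livers. Only KO:WT animal 23 at 4.36 CPM reached into the upper part of the KO:HOM range, and the next KO:WT liver was at 2.37 CPM. Golm1 rose by 1.05 on the log2 scale (95% confidence interval 0.46 to 1.64, adjusted p = 0.00817 by edgeR), or 2.07-fold, in the fit of 46 livers, and the estimate was also 1.05 but no longer called with all 48 (adjusted p = 0.172). KO:HET animal 9 held 8.37 CPM, the highest of the knockout study, and KO:HET animal 3, the shallowest liver, held 1 read. Golm1 overlaps Naa35 on the opposite strand, which held 26.5 to 31.9 CPM on average in every group.

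Ly6d covered the widest range of CPM, from 0.201 to 313 CPM over the 46 livers. It encodes a small GPI-anchored protein of the Ly6 family, best known from stratified epithelium and early B cells (chr15:74633902-74635597, - strand). DN:WT livers ran from 3.11 CPM through a median of 9.28 to 26.1 CPM, and DN:HOM livers from 68.1 CPM in animal 33 through a median of 209 to 313 CPM in animal 9. All 7 DN:HOM livers were above every DN:WT liver. The log2 fold change was 4.08 (95% confidence interval 2.80 to 5.36, adjusted p = 4.72e-07 by edgeR), or 16.9-fold, and 2.20 with all 48 livers (adjusted p = 0.0103). The library labelled DN:WT animal 10 held 225 CPM and the library labelled DN:HOM animal 12 held 14.8 CPM. DN:HET livers, at 2.28 to 26.5 CPM with a median of 13.96 CPM, covered the DN:WT range (log2 fold change 0.33, adjusted p = 0.875 by edgeR).

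In the knockout study Ly6d was low, with 0.431 to 14.7 CPM and a median of 1.23 CPM in KO:WT, and 0.803 to 11.3 CPM with a median of 3.86 CPM in KO:HOM livers. KO:WT animal 23 alone held 14.7 CPM, and the next KO:WT liver held 1.79 CPM. With it, Ly6d was 0.83 higher in KO:HOM livers on the log2 scale and not called (95% confidence interval -0.53 to 2.19, adjusted p = 0.429 by edgeR). Without KO:WT animal 23 the difference was 2.23 and was called (adjusted p = 0.0224 by edgeR). KO:HET animal 9 held 20.9 CPM, against 6.63 CPM in the next KO:HET liver. Between wild-type groups Ly6d was lower in KO:WT than in DN:WT by 2.09 on the log2 scale (adjusted p = 0.0292), a call lost in 8 of 30 fits that left out 1 liver, and 7 of the 8 KO:WT livers were below all 7 DN:WT livers.

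Tff3, a secreted trefoil peptide that protects mucosal surfaces and is made by goblet cells and some bile duct cells (chr17:31344280-31348620, - strand), rose in DN:HOM livers but had a different order in the series. DN:WT livers ran from 0.202 CPM through a median of 0.666 to 1.499 CPM, and DN:HOM livers from 2.03 CPM through a median of 3.65 to 5.92 CPM. The groups did not overlap. Tff3 rose by 2.41 on the log2 scale (95% confidence interval 1.08 to 3.73, adjusted p = 0.00164 by edgeR), or 5.30-fold, and 1.63 with all 48 livers (adjusted p = 0.0333).

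The highest Tff3 levels were not in DN:HOM livers. KO:WT animals 5, 31 and 32 held 9.89, 8.97 and 7.11 CPM, and KO:HET animals 9 and 16 held 10.1 and 7.41 CPM, above the DN:HOM maximum of 5.92 CPM. The other KO:WT livers held 0.199 to 3.28 CPM. KO:HOM livers lay between 1.17 and 6.08 CPM, with a median of 2.68 CPM, and did not differ from KO:WT (log2 fold change -0.48, 95% confidence interval -1.60 to 0.65, adjusted p = 0.603 by edgeR). Tff3 was 2.36 higher on the log2 scale in KO:WT than in DN:WT livers (adjusted p = 0.0118), where 12% of all tested genes differed (12.7% with all 48 livers). Gpc3, Ly6d and Tff3 were the 3 genes of the 7 called between the wild-type groups over 46 livers. In the fit of all 48, Ly6d and Golm1 were called, both lower in KO:WT. The mean level in KO:WT livers was 3.96 ± 4.07 CPM (SD, n = 8), beside 4.07 ± 1.25 CPM in DN:HOM livers (SD, n = 7). DN:HET livers ran from 0.129 to 3.10 CPM with a median of 1.09 CPM, and 3 of 8 lay above every DN:WT liver (log2 fold change 0.80, adjusted p = 0.691 by edgeR).

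The effect of homozygosity was compared directly between the lines, as the DN:HOM minus DN:WT difference less the KO:HOM minus KO:WT difference. All 7 tested genes gave a larger value for the knock-in, where 16.5% of all tested genes were called in this direction and 34.7% in either direction over 46 livers. The largest differences of differences were 3.49 on the log2 scale for H19 (95% confidence interval 1.82 to 5.16, adjusted p = 0.000881 by edgeR), 3.25 for Ly6d (1.42 to 5.08, adjusted p = 0.00426) and 3.23 for Cd24a (2.41 to 4.05, adjusted p = 3.15e-08). Tff3 gave 2.88 (adjusted p = 0.00757), Golm1 2.40 (adjusted p = 1.58e-05), Gpc3 2.15 (adjusted p = 0.0339) and Afp 1.20 (adjusted p = 0.0154). The calls for Ly6d and Gpc3 turned on single livers. Without KO:WT animal 23 the Ly6d value was 1.85 (adjusted p = 0.134), and Gpc3 fell below the threshold without any one of DN:WT animals 5, 13 or 21, DN:HOM animals 15, 18 or 33, KO:WT animals 5 or 23, or KO:HOM animals 20, 26 or 30. With all 48 livers none of the 7 was called (edgeR), 4 had an unadjusted p under 0.05, while 10.5% of all genes were called and 4.05% in this direction. DESeq2 was run on the 46 livers only, where it called all 7. H19 changed sign in the fit of 48 livers, to -0.40.

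**Figure D2:**
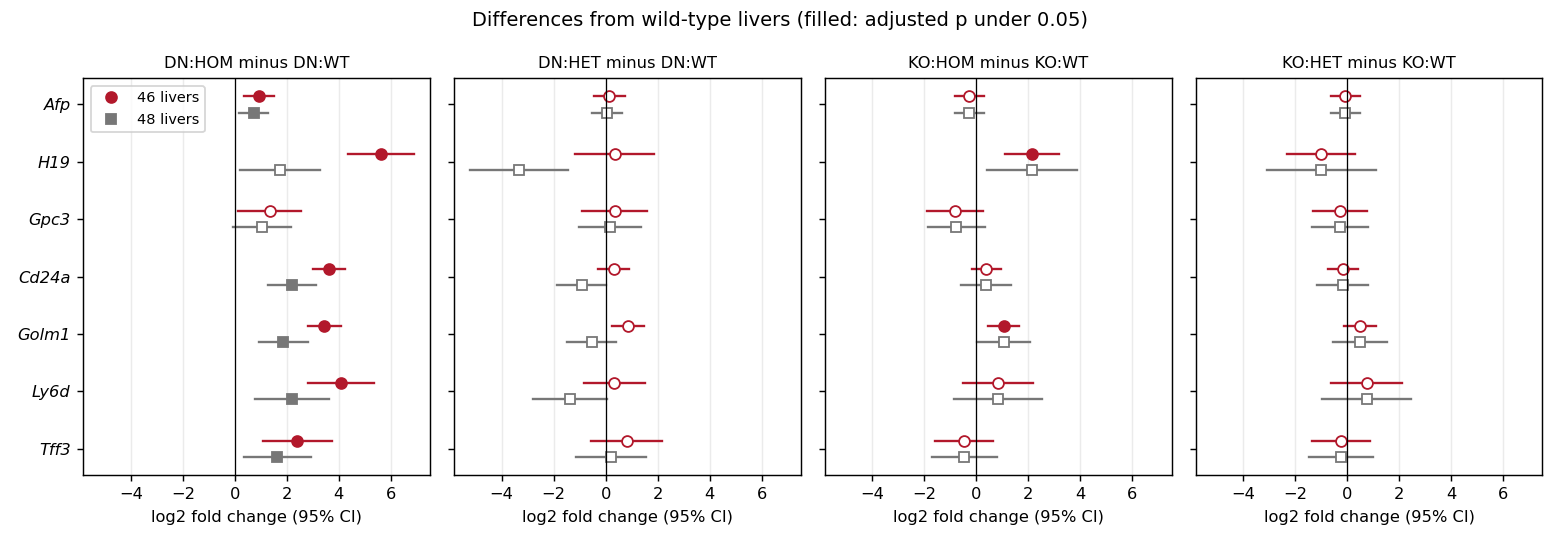
Log2 fold change of the 7 tested genes in each mutant group against its own wild-type group, with 95% confidence intervals; circles are the fit of 46 livers, squares the fit of all 48, and filled symbols have an adjusted p under 0.05. In DN:HOM livers the 46-liver values of H19, Cd24a, Golm1 and Ly6d lie between 3.44 and 5.63, and in heterozygous livers every symbol is open.

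Heterozygous livers were tested in the same fit. In DN:HET livers 2.3% of all genes were called, against 0.25% with all 48 livers and 0.0361% in the fit of DN:HET and DN:WT alone, and 1 of the 7, Golm1, had an unadjusted p under 0.05. In KO:HET livers 0.0191% of all genes were called, and none of the 7 had an unadjusted p under 0.05. DESeq2 on the 46 livers also called none of the 7 in either heterozygous group. Of the related and marker lists, 4 were called in part in DN:HET livers, all upwards: 4 of 5 tested Ly6 genes (2 with all 48 livers), 5 of 6 T cell markers (2), 3 of 8 macrophage markers (0) and 2 of 15 injury and progenitor genes (0). No list had a call in KO:HET livers.

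Per kilobase of canonical transcript, Ly6d was the highest of the 8 genes in all 3 DN groups, with a mean of 14.8 ± 11.7 CPM per kb in DN:WT (SD, n = 7) and 249 ± 94.5 CPM per kb in DN:HOM livers (SD, n = 7). Cd24a came next in DN:HOM livers at 15.1 ± 1.44 CPM per kb, followed by Tff3 at 8.25 ± 2.53, H19 at 7.68 ± 5.32 and Golm1 at 6.86 ± 1.27 CPM per kb, of which the last 3 differed by less than their spread. H19 stood seventh of 8 in DN:WT livers, at 0.152 ± 0.110 CPM per kb. In all 3 KO groups Tff3 ranked first and Ly6d second, at 8.04 ± 8.25 and 3.39 ± 5.96 CPM per kb in KO:WT (SD, n = 8), with spreads that overlapped. Igf2bp3 was the lowest in every group.

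The livers that stood out within a group were often the same for several genes. DN:HET animals 4 and 22 were the 2 highest of their group for Cd24a, Golm1 and Tff3, KO:HOM animals 8 and 11 for Cd24a and H19, and KO:HET animal 9 was the highest of its group for 6 of the 8 genes: Afp, H19, Cd24a, Golm1, Ly6d and Tff3. KO:WT animal 23 was the highest of its group for H19, Gpc3, Cd24a, Golm1 and Ly6d, but held 0.456 CPM of Tff3. With group means removed, log2 levels over the 46 livers were most alike between Golm1 and Ly6d (Pearson r = 0.650, Spearman rho = 0.478, and r = 0.523 without the 2 livers farthest from the median), then between Cd24a and Ly6d (0.533, 0.470 and 0.449) and between Cd24a and Golm1 (0.506, 0.464 and 0.462). Ly6d and Tff3 ran the other way (r = -0.31, rho = -0.45). These values describe livers that share library depth and normalisation, and carry no test.

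The 3 genes most like each tested gene were found by the same measure among tested genes with a mean log2 CPM above 0. Cd24a was most like the collagen genes Col1a2 (r = 0.825) and Col1a1 (r = 0.820) and the tropomyosin gene Tpm4 (r = 0.800). Golm1 was most like Fstl1 (r = 0.820), which encodes a follistatin-like secreted glycoprotein, then Frzb (r = 0.795) and the complement receptor gene C5ar1 (r = 0.794). Ly6d was most like Ifi27l2b (r = 0.882) and the annexin genes Anxa2 (r = 0.869) and Anxa5 (r = 0.849). Gpc3 was most like Upk3b (r = 0.830), Igfbp5 (r = 0.739) and Msln (r = 0.712), of which Upk3b and Msln are known from mesothelial cells. H19 was most like Ralb (r = 0.727), Gas2l3 (r = 0.684) and Lacc1 (r = 0.678), Tff3 like Enho (r = 0.745), Serpina1e (r = 0.726) and Blnk (r = 0.675), and Afp like Fars2 (r = 0.644), Gm40438 (r = 0.558) and Zfp696 (r = 0.538). No gene appeared for more than 1 of the 7.

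Other genes of the fetal liver programme were read from a list of 18, of which 11 passed the filter. In DN:HOM livers, where 59.1% of all tested genes were called and 29.1% were higher, 7 were higher and 1 lower, with a median log2 fold change of 1.37, beside -0.01 over all tested genes. The counts were the same with all 48 livers, at a median of 0.96. Meg3, a maternally expressed noncoding RNA like H19, rose from 0.810 ± 0.378 CPM in DN:WT to 28.01 ± 11.8 CPM in DN:HOM livers (SD, n = 7 each), a log2 fold change of 5.10 (adjusted p = 3.07e-13 by edgeR; 3.26 with all 48 livers), and was the 1 gene of this list higher in KO:HOM livers (1.47, adjusted p = 0.00278). That call was lost with all 48 livers (adjusted p = 0.0765). The growth factor gene Mdk (3.11), the trypsin inhibitor gene Spink1 (4.11), the E-cadherin gene Cdh1 (2.84), Scd2 (1.82), Grb10 (1.37) and Plagl1 (1.25) were also higher in DN:HOM livers, and the paternally expressed Peg3 was lower by 0.96. No read was assigned to Igf2, the imprinted neighbour of H19, in any of the DN livers used, nor to Lin28b in any group, and whether the counting left out reads shared with an overlapping gene there was not tested.

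Of 11 transcription factors and repressors known to act on Afp, H19 or Gpc3, 1 was higher and 3 were lower in DN:HOM livers, where 59.1% of all tested genes were called. Zhx2 and Zbtb20, the postnatal repressors of Afp, had log2 fold changes of 0.03 and 0.07 (adjusted p = 0.752 and 0.615 by edgeR). Cebpa (-0.73), Foxa2 (-0.59) and Onecut1 (-1.56) were lower, Foxa3 (0.48) was higher, and of these 4 Cebpa alone was called with all 48 livers. In KO:HOM livers 2 of the 11 were lower and none higher, beside 19.4% of all tested genes called. With all 48 livers 1 was lower there, beside 12.9%. The 3 tested members of the albumin family beside Afp, namely Alb, Afm and Gc, all fell in DN:HOM livers, by 1.15, 1.39 and 0.28 on the log2 scale. Alb and Afm also fell in KO:HOM livers, by 0.43 and 0.27, calls that were lost with all 48 livers.

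Relatives of the surface genes were read as well. Of the other glypicans, Gpc1 fell by 2.55 on the log2 scale in DN:HOM livers, while Gpc4 and Gpc6 did not pass the threshold. Of 5 tested Ly6 genes 1, Ly6e, was higher in DN:HOM livers (1.63, and 1.08 with all 48), beside 29.1% of all tested genes. All 5 were higher in KO:HOM livers, beside 11.5% of all tested genes, where Ly6d was not called with the 46 livers. Of 4 tested genes in a list of Golm, Siglec and trefoil relatives, 1 was higher and 1 lower in DN:HOM livers. In KO:HOM livers 3 of the 4 were higher, and these counts were the same with all 48 livers. Golm2 was higher in DN:HOM livers (1.08, adjusted p = 4.89e-08, and 0.86 with all 48) and not called in KO:HOM livers (0.20, adjusted p = 0.369). Siglecg, a receptor for CD24, was not called in DN:HOM livers (0.36, adjusted p = 0.519) and was higher in KO:HOM livers (1.46, adjusted p = 0.0200). Tff1 and Tff2 did not pass the filter, and Tff2 averaged 0.598 CPM in DN:HOM and 0.0286 CPM in DN:WT livers.

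A list of liver injury and progenitor genes held 16 members, of which 15 were tested and 6 also stand in the list of bile duct cell markers. All 15 were higher in DN:HOM livers with either set of livers, beside 29.1% of all tested genes over 46 and 23% over 48. Their median log2 fold change was 3.56 over 46 livers and 2.04 over 48. In KO:HOM livers 5 were higher and 1 lower at a median of 0.23, beside 11.5% of all tested genes higher and 19.4% changed. With all 48 livers 3 were higher, beside 8.79% of all genes. Over all tested genes the KO:HOM median was -0.02. Examples are the acute-phase gene Lcn2 (4.76 in DN:HOM, 2.44 in KO:HOM), the osteopontin gene Spp1 (4.57 and 1.42), the epithelial surface gene Epcam (4.004 and 0.11, the last not called) and the FN14 receptor gene Tnfrsf12a (2.61 and 0.14, the last not called). Cldn6 was higher in DN:HOM livers (3.43) and lower in KO:HOM livers (-1.87), the last call lost with all 48 livers (adjusted p = 0.149 by edgeR).

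**Figure D3:**
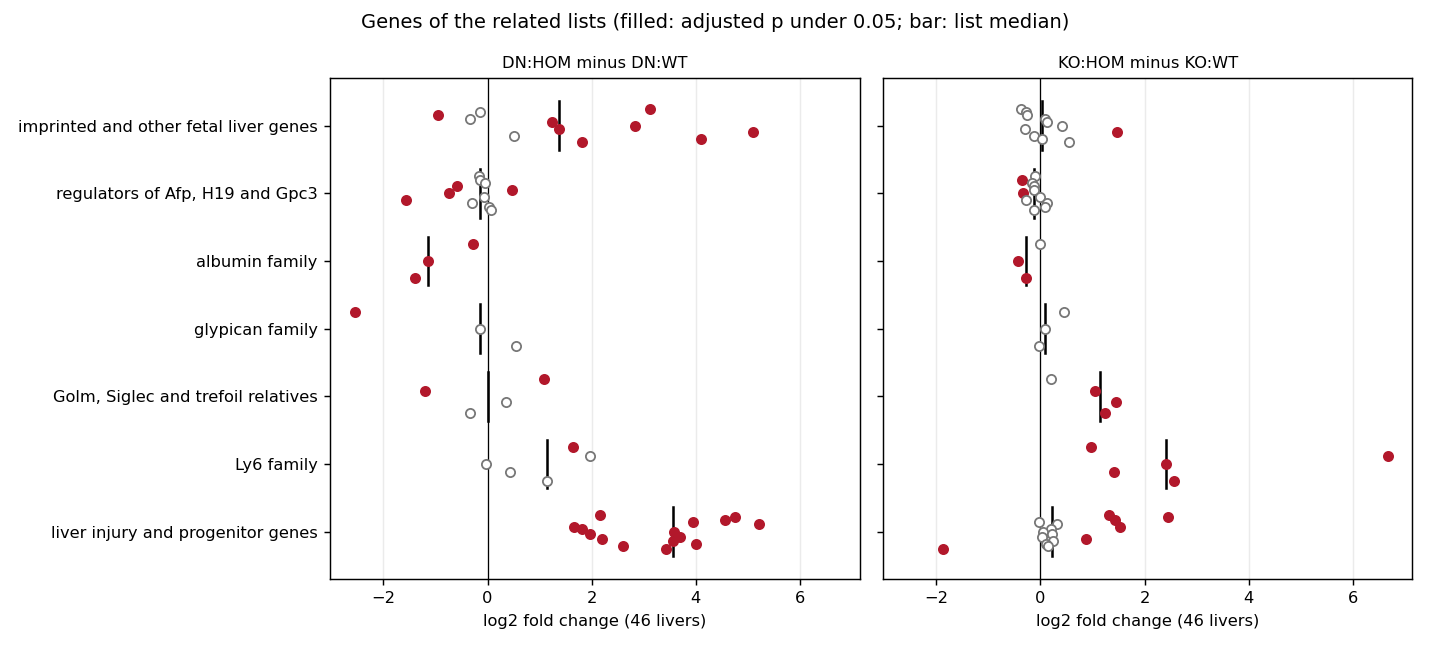
Log2 fold change (46 livers) of each tested gene of the 7 related lists in DN:HOM and KO:HOM livers against their wild-type groups; filled points have an adjusted p under 0.05 and bars are list medians. All 15 injury and progenitor genes are filled and above 0 in DN:HOM livers, with a median of 3.56, while their KO:HOM median is 0.23.

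Markers of other cell types moved with these genes, and in whole liver a change in the number of cells and a change in RNA per cell cannot be told apart. The counts below stand beside 29.1% of all tested genes higher and 30% lower in DN:HOM livers, and 11.5% higher and 7.87% lower in KO:HOM livers, over 46 livers. The shares over all 48 were 23% and 25% in DN:HOM and 8.79% and 4.12% in KO:HOM livers. Summed bile duct cell markers ran from 89.8 to 111 CPM in DN:HOM and from 8.43 to 14.1 CPM in DN:WT livers, with all 7 tested markers higher, but from 8.71 to 19.5 CPM in KO:HOM and 6.29 to 19.5 CPM in KO:WT livers, with none called. Stellate cell and fibroblast markers ran from 409 to 584 CPM in DN:HOM against 65.8 to 114 CPM in DN:WT livers (6 of 7 higher) and from 83.3 to 203 CPM in KO:HOM against 56.8 to 172 CPM in KO:WT livers (4 of 7 higher). Proliferation markers ran from 65.2 to 100.4 CPM in DN:HOM against 7.84 to 17.95 CPM in DN:WT livers (7 of 7 higher), and macrophage markers from 895 to 1492 CPM against 135 to 256 CPM (6 of 8 higher and 2, Clec4f and Timd4, lower). Neutrophil markers (6 of 6 higher) and T cell markers (5 of 6 higher) also moved, and summed hepatocyte markers fell from 66790 to 83010 CPM in DN:WT to between 31380 and 43310 CPM in DN:HOM livers (8 of 8 lower). Of the rest, 1 of 5 B cell markers was higher and 1 lower, 2 of 3 plasmacytoid dendritic cell markers were higher and 2 of 4 erythroid markers were lower in DN:HOM livers. In the fit of all 48 livers 7 of 7 bile duct, 6 of 7 stellate, 5 of 7 proliferation, 5 of 6 neutrophil, 2 of 3 plasmacytoid dendritic cell, 5 of 8 macrophage and 1 of 6 T cell markers were higher in DN:HOM livers, 7 of 8 hepatocyte, 2 of 8 macrophage and 1 of 4 erythroid markers were lower, and no B cell marker was called. In KO:HOM livers 5 of 8 macrophage markers were higher and 2 lower, 3 of 6 neutrophil, 6 of 6 T cell, 2 of 3 plasmacytoid dendritic cell and 1 of 7 proliferation markers were higher, and 5 of 8 hepatocyte and 1 of 4 erythroid markers were lower, with no B cell marker called. With all 48 the KO:HOM counts were 4 of 8 macrophage markers higher and 1 lower, 1 of 7 stellate, 1 of 6 neutrophil and 6 of 6 T cell markers higher and 2 of 8 hepatocyte markers lower, and none of the bile duct, plasmacytoid dendritic cell, proliferation, B cell and erythroid markers was called. The part of these cells in the members' differences was not tested.

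Within groups, too, Cd24a, Golm1 and Ly6d followed the stellate cell and fibroblast sum. With group means removed, Pearson r over the 46 livers was 0.794 for Cd24a, 0.793 for Golm1, 0.762 for Ly6d and 0.569 for H19, and 0.742, 0.706, 0.647 and 0.430 without the 2 livers farthest from the median. For Tff3 it was -0.02 and for Afp -0.001. Cd24a also followed the proliferation sum (0.752) and the bile duct cell sum (0.712). KO:WT animal 23 and KO:HET animal 9, which stood out for several members, had the highest stellate sums of their groups at 172 and 217 CPM, and KO:HOM animals 8 and 11 those of theirs at 203 and 186 CPM. Yet KO:HOM animal 8 held 1.65 CPM of Ly6d, below its group median of 3.86 CPM. Its Golm1 was 4.35 CPM, beside a group median of 4.26 CPM.

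**Figure D4:**
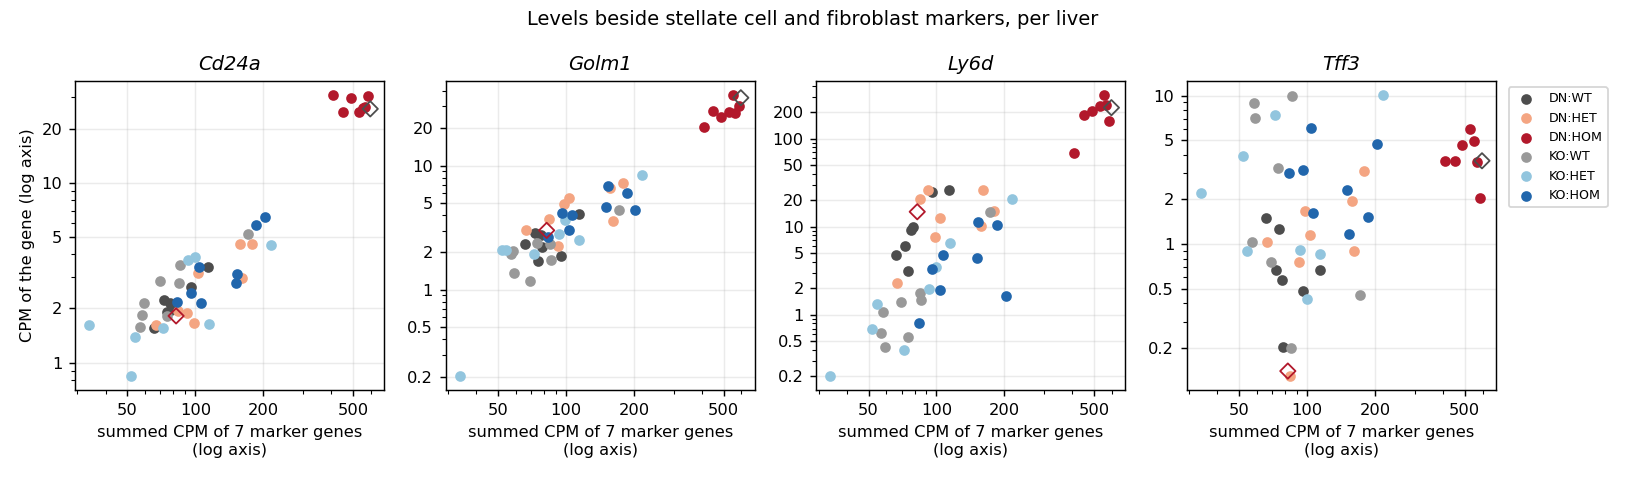
CPM of Cd24a, Golm1, Ly6d and Tff3 in each liver against the summed CPM of 7 stellate cell and fibroblast markers, both on log axes, coloured by group; open diamonds are the 2 libraries set aside. Cd24a, Golm1 and Ly6d tend to be higher where the sum is higher, with exceptions such as Ly6d in KO:HOM animal 8 at 1.65 CPM. Tff3 of the knockout study spreads from 0.199 to 10.1 CPM without following it.

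For Tff3 the markers of goblet cells and intestine were also read. Agr2 had no read in any group, Muc2 reached at most 0.287 CPM, and Vil1 alone of the 7 listed passed the filter, higher in DN:HOM livers (4.87). Of 6 pancreas markers Cela1 alone passed it, lower in KO:HOM livers by 1.13 on the log2 scale. KO:WT animal 1 held 13.1 CPM of Zg16 and a pancreas marker sum of 303 CPM, against at most 23.2 CPM in the other KO:WT livers, and its Tff3 was 1.03 CPM. The goblet and intestine sum was 0.135 CPM in KO:WT animal 5 and 0.153 CPM in KO:WT animal 31, the lowest of their group. KO:WT animal 5 and KO:HET animal 9, the highest of their groups for Tff3, had the highest B cell sums of their groups at 29.3 and 19.9 CPM, and r between Tff3 and that sum was 0.452, or 0.229 without the 2 farthest livers.

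**Figure D5:**
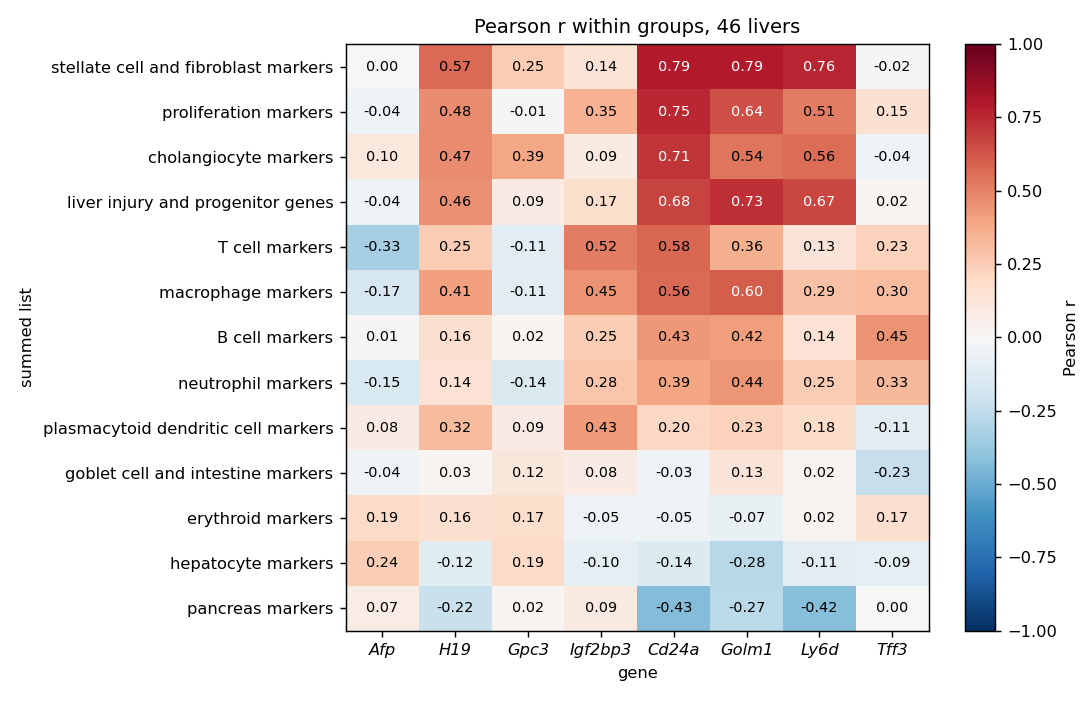
Pearson r between each gene (columns) and each summed marker list (rows), on log2 CPM plus 0.5 with group means removed, over the 46 livers. Values for stellate cell and fibroblast markers run from 0.76 to 0.79 for Ly6d, Golm1 and Cd24a, and are near 0 for Afp and Tff3.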

How the data were processed

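Per the labels and the study's methods, liver mRNA was sequenced as stranded libraries, and the authors deposited raw counts of reads per gene from STAR 2.5.0a (GRCm39, Ensembl), with a column for each strand setting. The column used here holds 6.97 to 8.62 times the reads of the opposite strand. A median of 25.2% to 30.5% of reads per group named no gene and were left out. The 8 genes and all lists were chosen with earlier results of these data known. Gene symbols and positions came from GENCODE vM39, which matched 54749 identifiers (98.8%). The counts were fitted with edgeR 4.0.16 (filterByExpr, TMM, quasi-likelihood test, 1 mean per group, Benjamini-Hochberg adjustment over 15711 genes, threshold 0.05) on 46 livers, with all 48 as an alternative, because 2 libraries went against their labels and stand outside one of the authors' own tables. CPM was scaled by TMM over the 48 livers. DESeq2 1.42.0, other scalings, filters, strand columns and sets of livers were run as alternatives. Genes under the filter were compared by exact permutation of the mean CPM. Each sample is a separate mouse, and no 2 libraries were identical. Genes named were the 8, Nr1h3, genes overlapping them, list members that a result turns on, and the 3 genes most like each tested one by Pearson r of log2 CPM less the group mean, among genes with a mean log2 CPM above 0. Some genes of a list fixed at the start are not reported here. The fit was tested on simulated data in which 200 genes changed in DN:HOM livers, as many up as down. The real comparison called 59.1% of all tested genes, so that test does not cover the scaling there. Precision is limited by read depth for genes with few reads.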

Additional observations from a re-analysis of the deposited data

Results flagged for a closer look

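In 9 of 48 sets of livers (8 genes in 6 groups), 1 liver lay far from the rest of its group, where chance would mark about 1 in 20 independent sets. That rate may not hold for genes with few reads. These sets are not independent, and 7 of the 9 come from 2 livers. KO:WT animal 23 stood apart for H19 (3.19 CPM), Golm1 (4.36 CPM) and Ly6d (14.7 CPM). KO:HET animal 9 stood apart for Afp (2.85 CPM), H19 (1.59 CPM), Golm1 (8.37 CPM) and Ly6d (20.9 CPM). KO:HOM animal 8 stood apart for H19 (11.8 CPM) and DN:WT animal 7 for Gpc3 (1.53 CPM). KO:WT animal 23 and KO:HET animal 9 also had the highest summed stellate (172 and 217 CPM), bile duct (19.5 and 22.3 CPM) and proliferation markers (17 and 26.96 CPM) of their groups, and KO:HOM animal 8 those of its own (203, 19.5 and 34.5 CPM). The part of these cells was not tested.

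The homozygous effect differed between the lines for 7 genes, on the log2 scale by 1.20 for Afp, 3.49 for H19, 2.15 for Gpc3, 3.23 for Cd24a, 2.40 for Golm1, 3.25 for Ly6d and 2.88 for Tff3. Each compares the knock-in against its wild type with the knockout against its own, by an interaction term in edgeR over 46 livers. There 34.7% of all tested genes were called, 16.5% in this direction. With all 48 livers none of the 7 was called and H19 changed sign. The Ly6d and Gpc3 calls over 46 livers turned on single livers. Line, site and any difference in sex cannot be told apart here.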

How the results depend on the processing

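Of 1284 values recomputed under other settings, 1192 kept their direction and their side of the threshold, 21 moved past it, 58 fell short of it and 13 changed sign. With all 48 livers the number of the 7 genes called fell to 0 in KO:HOM livers and to 0 for the difference of homozygous effects, and the fit of the compared groups alone called 1 gene between the wild-type groups, and the cause was not tested. Leaving out 1 liver gave 6 to 8 calls in DN:HOM livers, 2 to 3 in KO:HOM livers, 5 to 7 for the difference of effects and 1 to 3 between the wild-type groups, and 8 includes Igf2bp3, which then passed the filter. Unstranded counts, which add the antisense reads, turned Afp to -0.36 in DN:HOM, 0.14 in KO:HOM, -0.01966 in DN:HET and 0.18 in KO:HET livers, -0.50 for the difference of effects and -0.24 between wild types. With all 48 livers the DN:HET value turned to -3.34 for H19, -0.91 for Cd24a, -0.54 for Golm1 and -1.36 for Ly6d, the difference of effects to -0.40 for H19, and the difference between wild types to -2.35 for H19 and -0.96 for Cd24a. These follow from the 2 added libraries. Scaling by library size alone put the median of all genes at 0.418 in DN:HOM livers, in place of -0.0118, where 59.1% of genes were then higher and 11.1% lower, against 29.1% and 30%, and turned no value of the 8 genes. No paired analysis was possible because the groups compared within a study share no animal number, and the numbers that recur between the studies name different mice. Read depth limits Igf2bp3, and H19 in wild-type livers, to counts of a few reads.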
